A study of Mus musculus with 12 samples.

Results

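LSK cells, sorted from mouse bone marrow as lineage-negative, SCA1-positive and cKIT-positive, include the haematopoietic stem cells and early progenitors. The results below describe what 4 Gy of ionizing radiation did within 3 h to the RNA of LSK cells from NIPA knockout (KO) mice. The comparison takes 6 of the 12 arrays of the series, 3 titled as irradiated KO and 3 as untreated KO. It covers 15348 genes, each read from its brightest probe set with exactly 1 gene symbol, of 22180 genes with such a probe set. NIPA is the product of Zc3hc1, and all 6 KO arrays share its loss. Donors of both genotypes were older than 20 months and had at least 10 generations of backcrossing to C57BL/6. LSK cells of 3 mice made up 1 sample. They spent 30 min in culture, with 30% serum and the cytokines SCF (50 ng/ml), IL-6 (10 ng/ml) and IL-3 (10 ng/ml), before they were irradiated or left untreated. The other 6 arrays, 3 untreated and 3 irradiated wild type (WT), entered the same model and serve as the reference response. The sources used here do not say how the knockout was made.

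Ionizing radiation breaks DNA, and the kinase ATM answers by activating p53 and NF-kB. p53 then switches on genes that arrest the cell cycle, start cell death and limit its own activity, while NF-kB switches on its own inhibitors and signals to other cells. Genes needed for mitosis are kept low in arrested cells by the DREAM complex, which binds promoters through CHR and other elements. NIPA is known as an F-box-like protein that takes part in the ubiquitination of cyclin B1, the partner of CDK1 at entry into mitosis, and has been linked to the Fanconi anaemia protein FANCD2.

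Zc3hc1 had log2 values of 5.82, 5.74 and 5.78 in untreated and 5.61, 5.65 and 5.75 in irradiated KO arrays. In WT arrays it stood at 7.67 to 8.47, above all KO arrays. The KO values lie above the brightness limit of 5.29, and whether the probe set lies within the deleted part of the gene is not known here. Its difference after irradiation was -0.11 (SE 0.15, limma adjusted p = 0.75). The cells carried Kit, the gene of cKIT, at 10.71 to 11.26 untreated and 10.29 to 11.10 irradiated. Of 9 measured markers that the sort excluded, Cd3e, Cd4, Cd8a and Ly6g did not pass the brightness limit of 5.29 in at least 3 arrays. Cd8a and Ly6g lay under it in all KO arrays, while Cd3e reached 5.60 and Cd4 5.42. Itgam, the gene of CD11b, stood at 7.50 to 8.66, and Ly6c2, of the LY6C family that GR1 antibodies can bind, at 10.22 to 11.43. The heavy chain gene Ighm, a B cell marker, stood at 12.50 to 13.67, and Mpo, a granulocyte enzyme, at 11.12 to 12.29. They are the brightest of 17 measured B cell and 19 measured granulocyte markers. Means of other markers lay under the brightness limit, such as Ms4a1 of B cells (4.52 untreated, 4.48 irradiated) and Retnlg of granulocytes (4.79 and 4.88). The mean of the B cell list was 0.70 in untreated array 2 and 0.78 in irradiated array 3, against -0.52 to -0.30 in the other 4 KO arrays (log2 relative to the untreated mean). The granulocyte list was highest in untreated array 1 (0.39) and irradiated array 1 (0.58). Both lists thus varied within the groups, and no member of either passed limma's test for irradiation (2 and 0 at an unadjusted p under 0.05).

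Correlation across the genes tested was 0.981 to 0.982 among untreated KO arrays, 0.960 to 0.977 among irradiated ones and 0.946 to 0.971 between the groups. Irradiated array 1 moved least. It showed the smallest response of the 3 irradiated arrays in 224 of the 420 genes that rose and in 239 of the 491 that fell. Its median response over those genes was 0.79 and -0.64, against 0.97 and -0.81 in array 2 and 0.91 and -0.78 in array 3. In bulk samples, fewer cells of a type and less RNA per cell cannot be told apart. Whether an untreated and an irradiated sample shared a pool of mice is not in the labels, and the p-values therefore reflect only how far these arrays spread.

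Irradiation changed 911 genes in KO cells (5.94% of those tested), 420 upward (2.74%) and 491 downward (3.2%), at an adjusted p under 0.05. The median over all genes tested was -0.02 on the log2 scale. Rises were larger than falls. More than 2-fold differences were found for 177 rises and 112 falls, and more than 4-fold ones for 31 rises and 5 falls. The median called rise was 0.90 and the median called fall -0.74. None of the 911 overlapped between the groups, which was also the case for 3592 genes in all (23.4%). For 13 rises all untreated KO arrays lay under the brightness limit, and for 8 falls all irradiated ones did. For 327 of the 911 genes, 197 rises and 130 falls, the call held in every alternative setting that tested the gene. These settings include leaving out any of the 12 arrays. A stricter brightness limit tested only 10899 genes, and a call on a gene it removed is not counted as lost there. The number of called genes was 392 without untreated array 2, 468 without irradiated array 2 and 483 without untreated array 1. It was 533 without irradiated array 3 and 1573 without irradiated array 1.

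**Figure D1:**
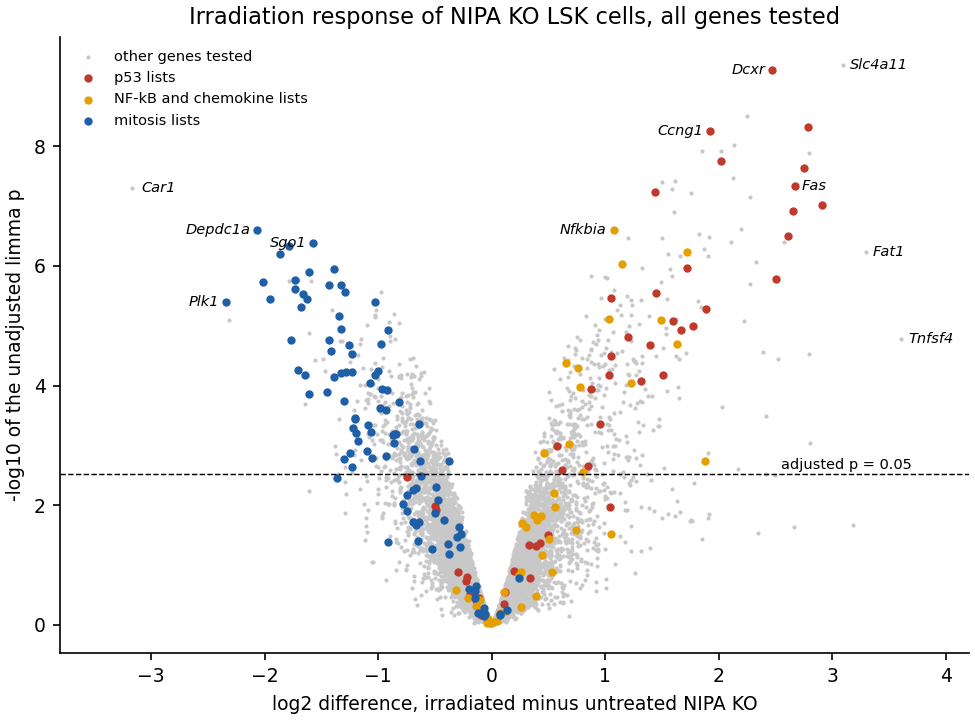
Difference between irradiated and untreated NIPA KO cells (log2, horizontal) against the -log10 of the unadjusted limma p (vertical) for 15348 genes, with members of the p53, NF-kB and chemokine, and mitosis lists in colour. The dashed line marks an adjusted p of 0.05; coloured p53 members that passed lie to the right and coloured mitosis members that passed lie to the left.

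Members of the p53 lists, which were written with earlier results of these data known, rose more often than genes at large. Of 49 tested members of 4 p53 lists, 29 rose and 0 fell, with a median difference of 1.03. The share that rose was 59.2%, against 2.74% of all genes. In the list of feedback and arrest genes, 11 of 14 rose (median 1.42). Ccng1, a cyclin that p53 induces, stood at 10.69, 11.15 and 11.18 in untreated cells and at 13.02, 12.92 and 12.86 after irradiation. That is a rise of 1.93 (SE 0.14, 3.80-fold, limma adjusted p = 1.7e-05), and the irradiated arrays lay close together. Plk2, a polo-like kinase, went from 6.67, 6.43 and 6.99 to 8.76, 9.60 and 9.69, a rise of 2.65 (SE 0.25). Trp53inp1, a p53 cofactor, rose by 2.61 (SE 0.26). Its untreated array 1 stood lowest at 7.92, against 8.99 and 8.89, and its irradiated arrays at 10.81, 11.37 and 11.44.

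Inhibitors of p53 rose with its targets. Mdm2, the ubiquitin ligase that degrades p53, read 8.52, 8.59 and 8.64 untreated and 9.63, 10.48 and 10.64 irradiated, a rise of 1.67 (SE 0.24, limma adjusted p = 0.0016). Mdm4, which blocks p53 on promoters, rose by 1.44 (SE 0.12). Cdkn1a, the inhibitor of cyclin-dependent kinases that imposes arrest, stood without irradiation at 11.02, 11.08 and 10.76. It reached 12.10, 12.13 and 12.56, a rise of 1.31 (SE 0.23, 2.49-fold, adjusted p = 0.0053). Its rise was smaller in value than those of Ccng1, Plk2 and Mdm2, a difference that was not tested. Psrc1 rose by 2.02 (SE 0.16).

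Death genes form the next group, in which 10 of 16 rose (median 1.05). Receptors of the cell surface made up 3 of the 4 largest rises. Tnfrsf10b, the mouse receptor of the death ligand TRAIL, read 6.74, 6.43 and 7.27 untreated and 9.17, 10.02 and 9.96 irradiated, a rise of 2.90 (SE 0.26, 7.49-fold, limma adjusted p = 6.9e-05). Fas, the receptor of FAS ligand, read 6.01, 5.78 and 5.07 and then 8.19, 8.19 and 8.48, a rise of 2.67 (SE 0.23). Eda2r, a receptor of ectodysplasin A2, rose by 2.75 (SE 0.22). Phlda3, which holds back AKT signalling, went from 7.16, 7.25 and 7.33 to 9.60, 10.21 and 10.27, a rise of 2.78 (SE 0.19).

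In the BCL2 family, which controls the mitochondrial route of cell death, 3 of 14 genes rose and 1 fell, and the median was -0.02. Bax is not analysed here, and Pmaip1 and Bbc3 are also on the death list. Pmaip1, which encodes NOXA, rose by 1.89 (SE 0.25, limma adjusted p = 0.00095). Bbc3, which encodes PUMA, rose by 0.95 (SE 0.20, adjusted p = 0.016), from 6.99, 6.61 and 6.63 to 7.49, 8.06 and 7.54. Its call was lost without untreated array 2 or 3 or irradiated array 2 (adjusted p 0.0554 to 0.0734). Leaving out any of these arrays left 1 rise in the BCL2 family. The anti-apoptotic Bcl2 fell by 0.52 (SE 0.12), a call lost in 5 alternatives, among them the mean of its probe sets (adjusted p up to 0.478). Of 27 TNF receptors, 7 rose and 2 fell (4 rose without untreated array 2 or without untreated array 3). Cd27, a receptor of progenitors and lymphocytes, fell by 1.16 (SE 0.21), from 8.69, 8.54 and 8.77 to 7.86, 7.65 and 7.0.

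p53 genes of metabolism were split, with 6 of 13 higher (median 0.33). Dcxr, a sugar reductase, read 7.41, 7.16 and 7.41 untreated and 10.04, 9.70 and 9.64 irradiated, a rise of 2.47 (SE 0.14, 5.53-fold, limma adjusted p = 4.1e-06). Cpt1c, a carnitine palmitoyltransferase, rose by 2.50 (SE 0.29). Sesn2, an inhibitor of mTOR, went from 9.21, 8.73 and 8.99 to 10.13, 10.95 and 11.17, a rise of 1.77 (SE 0.25). Ddit4 and Lpin1 rose by 1.03 and 1.20. In the p53-linked repair list 2 of 6 rose, Ercc5, a nuclease of nucleotide excision repair, by 1.72 (SE 0.19) and Polk, a translesion polymerase, by 1.59 (SE 0.22), while the list's median was 0.04.

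**Figure D2:**
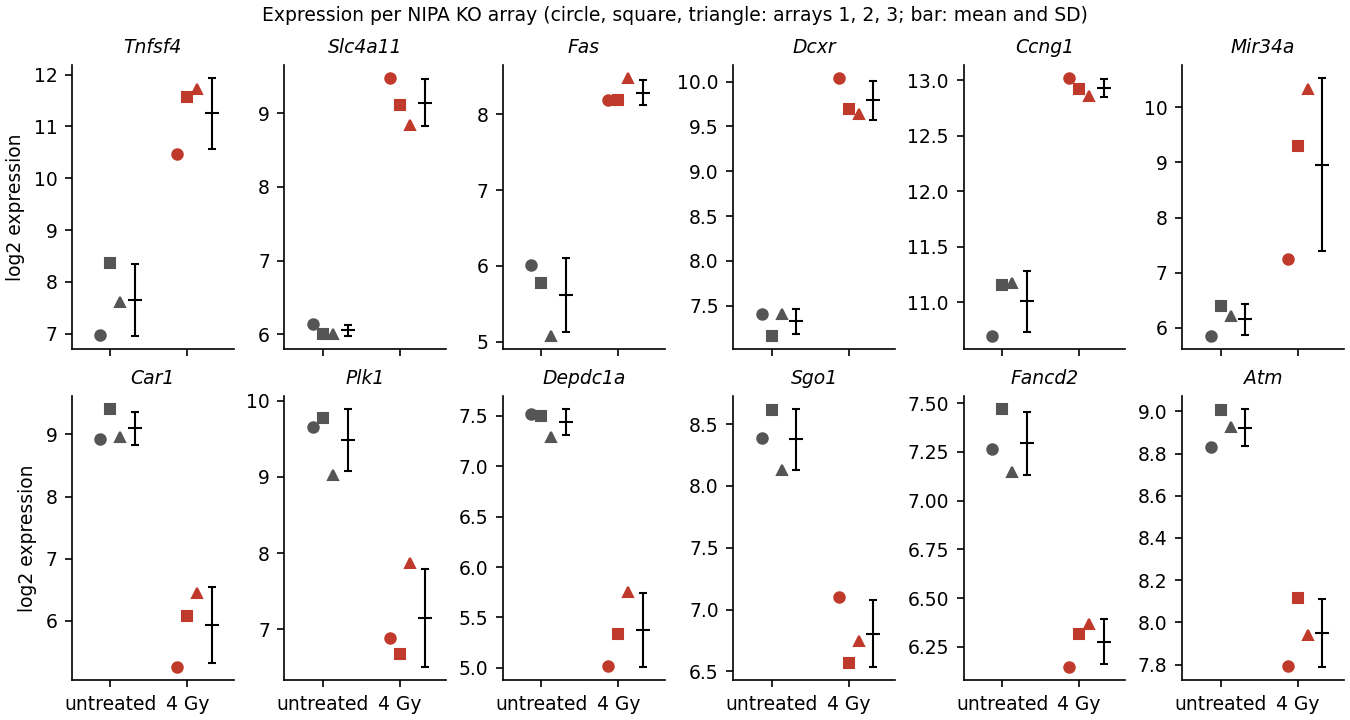
Log2 expression (vertical) of 12 genes in each untreated (grey) and irradiated (red) NIPA KO array, each panel with its own axis; the black bar is the mean with its SD over 3 arrays. The groups do not overlap in any panel; Mir34a shows a wide spread among irradiated arrays (7.26, 9.29 and 10.33) and Ccng1 a narrow one.

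Start site windows of 3 genes that rose are shown because they hold a match to the p53 consensus, here 20 bases with at most 2 mismatches and the core C and G of each copy exact. The sequences are from RefSeq on GRCm38.p6, 5′ to 3′ on the gene's strand, with the match in capitals. Positions count from the start site, with -1 the base before it.
Cdkn1a, chr17:29090913-29090962, plus strand, match from -51 to -32: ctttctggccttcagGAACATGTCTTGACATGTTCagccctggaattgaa
Ccng1, chr11:40755447-40755496, minus strand, match from -195 to -176: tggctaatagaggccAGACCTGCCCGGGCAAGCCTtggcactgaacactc
Cd80, chr16:38458807-38458856, plus strand, match from -111 to -92: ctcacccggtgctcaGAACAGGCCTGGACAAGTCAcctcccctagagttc
Windows run from 250 bases before a start to 50 after it, and both strands were searched. A match was found in 9.38% of 32 windows of p53 list members that rose, in 2.18% of 412 windows of all rises and in 0.375% of the windows of all genes tested. A match is a description of these letters and not a site of binding.

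Mir34a, the gene of a microRNA that p53 is known to induce, rose by 2.80 (SE 0.65, 6.98-fold, limma adjusted p = 0.024). It read 5.85, 6.40 and 6.22 untreated and 7.26, 9.29 and 10.33 irradiated, so irradiated array 1 rose far less than the others. The call was lost in 6 alternatives, with adjusted p from 0.0625 to 0.09, including without any single untreated KO array or without irradiated array 2 or 3. The probe set does not tell the arms of the hairpin apart. The 5p arm is the main product, and its RefSeq sequence is given with the seed, bases 2 to 8, in capitals.
mmu-miR-34a-5p, chr4:150068473-150068494, plus strand: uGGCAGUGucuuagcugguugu

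Several of the largest rises were cell surface and signalling genes outside the p53 lists. Tnfsf4, the OX40 ligand that costimulates T cells, had the largest difference of all. It read 6.97, 8.36 and 7.60 untreated and 10.47, 11.57 and 11.72 irradiated, a rise of 3.61 (SE 0.53, 12.2-fold, limma adjusted p = 0.002). Of 11 TNF superfamily ligands it was the single member past limma's test, while 5 had an unadjusted p under 0.05 and 2 passed without untreated array 1. Cd80, a costimulatory B7 ligand, read 7.81, 6.95 and 6.21 and then 10.71, 9.18 and 9.47, a rise of 2.79 (SE 0.44), with array 1 highest in both groups. It was the single riser of 7 B7 ligands. Epha2, an ephrin receptor, rose by 2.79 (SE 0.21) and the ephrin Efnb2 by 1.53 (SE 0.22), the called members of 16 in their list.

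Slc4a11, a membrane transporter, and Dcxr had the smallest adjusted p of all genes. Slc4a11 read 6.14, 6.00 and 6.01 untreated and 9.48, 9.12 and 8.84 irradiated, a rise of 3.09 (SE 0.18, 8.53-fold, limma adjusted p = 4.1e-06). Fat1, an atypical cadherin, rose by 3.29 (SE 0.35), Plxna1, a semaphorin receptor, by 2.25 (SE 0.15) and Ano1, a calcium-activated chloride channel, by 2.28 (SE 0.20). Gja1, the gap junction protein connexin 43, read 6.60, 6.25 and 5.94 and then 7.75, 9.38 and 9.21, a rise of 2.52 (SE 0.40). Ephx1, the microsomal epoxide hydrolase, rose by 2.58 (SE 0.26). Cbr3, a carbonyl reductase, rose by 2.39 (SE 0.37) from 4.07, 4.57 and 4.12, all under the brightness limit, so it was tested only because it is bright after irradiation.

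Among secreted factors, Csf1, the growth factor of macrophages, read 6.87, 7.44 and 7.20 untreated and 8.78, 9.68 and 9.87 irradiated, a rise of 2.27 (SE 0.27, limma adjusted p = 0.00051). Kitl, the ligand of cKIT, stood at 4.96, 4.73 and 4.74 and rose by 0.93 (SE 0.15) to 5.86, 5.85 and 5.51. Its untreated values are all under the brightness limit, so it too was tested only through the irradiated arrays. Il12a, a subunit of IL-12 and IL-35, fell by 1.21 (SE 0.24), from 8.80, 8.93 and 9.16 to 7.97, 7.90 and 7.38. These were the members past the test of 18 cytokines, whose median was -0.08.

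Inhibitors of NF-kB rose together with its non-canonical subunits. Of 21 genes of the NF-kB list, 10 rose and 0 fell (median 0.55). Nfkbia, which encodes the inhibitor IkB-alpha, read 9.18, 9.32 and 9.36 untreated and 10.17, 10.47 and 10.44 irradiated, a rise of 1.07 (SE 0.11, limma adjusted p = 0.00015). Tnip3, a partner of the ubiquitin editor A20, rose by 1.72 (SE 0.18), from 8.44, 8.83 and 8.85 to 10.17, 10.51 and 10.61. The subunit genes Nfkb2 and Relb rose by 1.15 (SE 0.13) and 1.03 (SE 0.14), and the adaptor Traf1 by 1.63 (SE 0.24). The list mean was 0.51, 0.74 and 0.66 in the irradiated arrays, against -0.04, -0.02 and 0.06 in the untreated ones.

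Of 24 chemokines 4 rose, with a list median of 0.12. Cxcl2, which attracts neutrophils, rose by 1.49 (SE 0.20), from 6.66, 6.49 and 6.58 to 7.74, 8.44 and 8.01. Ccl3 rose by 1.23 (SE 0.21, limma adjusted p = 0.0056). Cxcl3 and Ccl4 also passed, with calls lost in 9 and 11 alternatives. The count was 2 without untreated array 2 or 3, without any single irradiated KO array and without untreated WT array 2.

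Windows of 3 of these genes are shown because they hold a match to the NF-kB consensus, in capitals. The 2 matches of Cxcl2, from -97 to -88 and from -96 to -87, overlap.
Nfkbia, chr12:55492652-55492691, minus strand, match from -29 to -20: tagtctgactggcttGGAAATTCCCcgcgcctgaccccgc
Cxcl2, chr5:90903787-90903827, plus strand, matches from -97 to -87: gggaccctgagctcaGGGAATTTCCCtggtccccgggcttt
Tnip3, chr6:65590329-65590368, plus strand, match from -54 to -45: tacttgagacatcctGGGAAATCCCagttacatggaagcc
A match was found in 10 of 14 windows (71.4%) of NF-kB and chemokine members that rose, in 10.9% of windows of all rises, in 5.02% of those of falls and in 5.28% of those of all genes tested.

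Immediate early genes, which answer signals without new protein synthesis, rose in part. Of 33, 11 passed upward (median 0.43). Nr4a3, an orphan nuclear receptor, read 6.12, 6.04 and 6.31 untreated and 7.69, 8.06 and 7.38 irradiated, a rise of 1.55 (SE 0.17, limma adjusted p = 0.00024). Btg2, an antiproliferative gene that p53 also induces, rose by 1.51 (SE 0.26), the stress gene Gadd45b by 1.26 (SE 0.20), Atf3 by 1.06 (SE 0.18) and Ier5 by 1.02 (SE 0.15). The count was 5 without untreated array 2 or irradiated array 2 and 7 without untreated array 1 or irradiated array 3. Myc, which drives growth, stood at 11.36, 10.85 and 10.89 untreated and 10.75, 9.44 and 9.04 irradiated. Its difference of -1.29 (SE 0.37) did not pass (adjusted p = 0.061).

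Genes of antioxidant defence and iron were higher in irradiated arrays 2 and 3 than in array 1. Of 22 in the NRF2 list, 4 rose, with a median of 0.71. List means were 0.329, 1.063 and 1.075 in irradiated arrays 1 to 3, against -0.264, 0.334 and -0.069 in untreated ones. Irradiated array 1 thus did not exceed untreated array 2. Nfe2l2, the gene of NRF2, rose by 1.02 (SE 0.12, limma adjusted p = 0.00046), from 8.42, 8.22 and 8.41 to 9.25, 9.43 and 9.41. Hmox1, which degrades haem, read 8.82, 10.02 and 9.35 and then 10.85, 12.38 and 12.21, a rise of 2.42 (SE 0.49). Its call was lost without untreated array 1 or irradiated array 2 or 3 (adjusted p 0.0547 to 0.0607). Slc40a1, the iron exporter ferroportin, rose by 2.17 (SE 0.57), a call lost in 10 alternatives. The list's count was 11 without irradiated array 1, 7 without irradiated WT array 1, 2 without untreated array 3 and 1 without untreated array 1 or irradiated array 2 or 3.

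Lists of metabolism and protein turnover held from 0 to 6 called genes. Of 22 sterol and fatty acid genes 6 rose (median 0.32), and 3 did without irradiated array 2. They include Cyp51, which read 8.41, 8.11 and 7.90 untreated and 8.96, 9.15 and 9.14 irradiated, a rise of 0.95 (SE 0.16, limma adjusted p = 0.0048). Msmo1, of the same pathway to cholesterol, rose by 0.67 (SE 0.10). Of 29 autophagy and lysosome genes 6 rose (median 0.21). Sqstm1, the cargo receptor p62, rose by 1.18 (SE 0.17), from 11.30, 11.52 and 11.62 to 12.37, 12.84 and 12.77. The count was 1 without untreated array 2, 2 without untreated array 1 or irradiated array 2 and 3 without irradiated array 3. None of 24 genes of the unfolded protein and integrated stress response, 13 heat shock genes, 30 genes of oxidative phosphorylation or 32 proteasome genes passed the limma test, with medians of 0.14, 0.28, -0.13 and -0.04. At an unadjusted p under 0.05, 7, 3, 0 and 4 of them differed. Under other settings or with 1 array left out, up to 2 stress response genes, 1 heat shock gene and 1 proteasome gene rose. In the other direction, 1 oxidative phosphorylation gene and up to 3 proteasome genes fell.

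**Figure D3:**
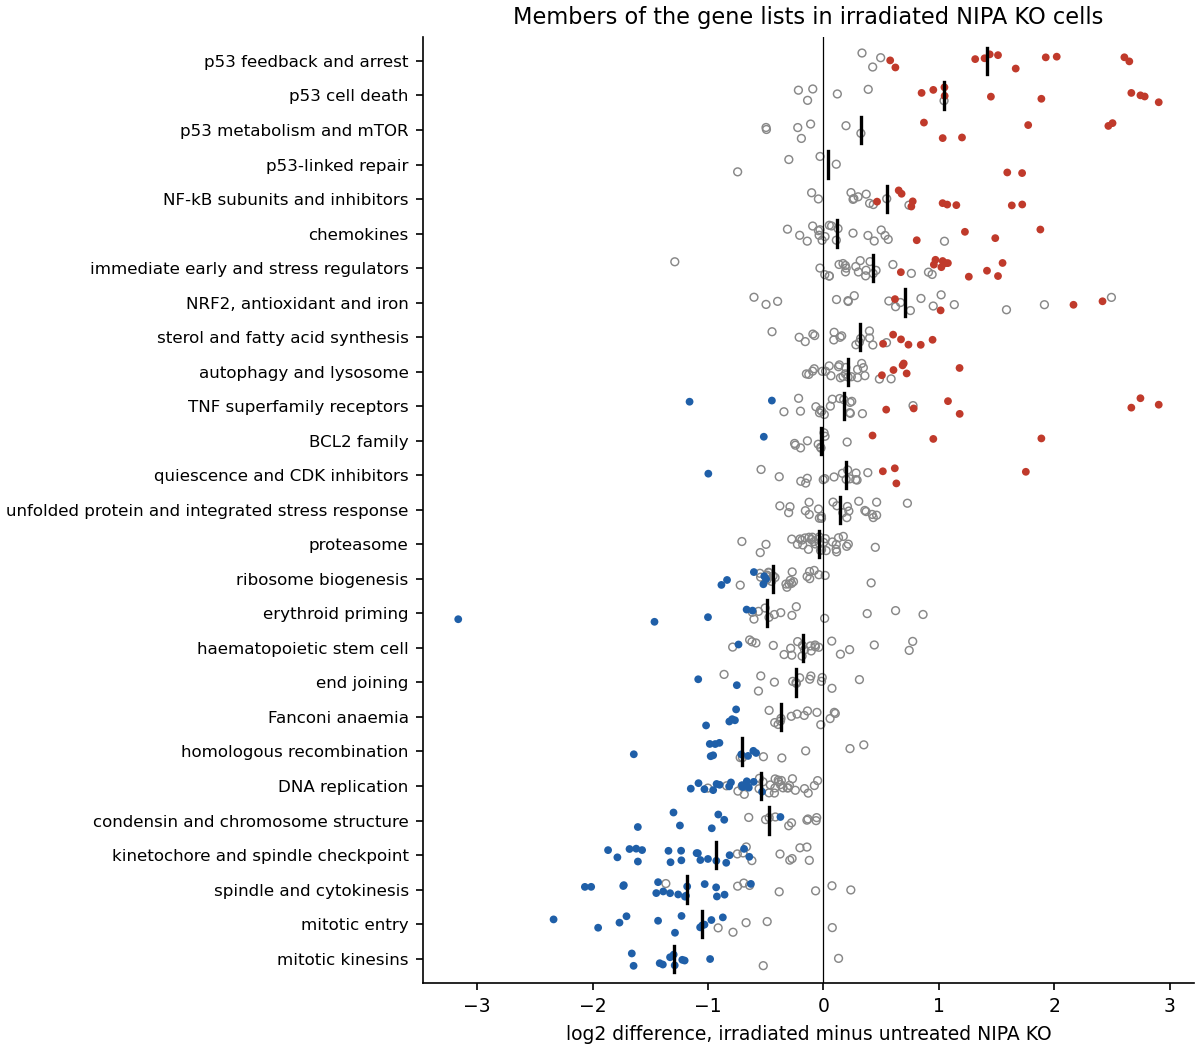
Log2 difference between irradiated and untreated NIPA KO cells (horizontal) of each tested member of 27 gene lists. Filled points passed the test, red upward and blue downward, open points did not, and the black bar is the list's median; points are spread vertically for visibility. Medians run from 1.42 for p53 feedback and arrest to -1.29 for mitotic kinesins.

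Members of the mitosis lists, also written with earlier results known, fell more often than genes at large. Of 100 tested members of 5 mitosis lists, 65 fell and 0 rose, with a median of -0.99, against 3.2% of all genes that fell. Without untreated array 2 the count was 42, and it was 45 to 66 without any other single array. In the mitotic entry list 12 of 17 fell (median -1.05). Plk1, the polo-like kinase that drives mitosis, read 9.65, 9.78 and 9.02 untreated and 6.89, 6.67 and 7.88 irradiated, and fell by 2.34 on the log2 scale (SE 0.30, 5.05-fold, limma adjusted p = 0.00077). Cdk1, the kinase that cyclin B1 activates, read 9.25, 9.31 and 8.88 and then 7.57, 6.61 and 7.40, and fell by 1.95 (SE 0.25). Its activating phosphatase Cdc25c fell by 1.43 (SE 0.21) and Aurkb, a kinase of chromosome segregation, by 1.77 (SE 0.26). Ccna2, the gene of cyclin A2, fell by 1.71 (SE 0.28). Ccnb1 is not analysed here.

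Kinetochore genes fell in 19 of 29 cases (median -0.93), with 10 left without untreated array 2 and 11 without irradiated array 2. Sgo1, which protects the cohesion of sister chromatids, read 8.39, 8.61 and 8.13 untreated and 7.10, 6.57 and 6.75 irradiated, and fell by 1.57 (SE 0.16, limma adjusted p = 0.00019). Nuf2, of the complex that binds microtubules, fell by 1.87 (SE 0.20) and Ska1 by 1.78 (SE 0.19). Ttk and Bub1, kinases of the spindle checkpoint, fell by 1.61 (SE 0.18) and 1.62 (SE 0.21), and Knl1, their docking protein, by 1.68 (SE 0.22).

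Of 12 mitotic kinesins, the motors of the spindle, 10 fell (median -1.29). Kif22 read 8.77, 9.06 and 8.59 untreated and 7.52, 7.40 and 7.32 irradiated, and fell by 1.39 (SE 0.16, limma adjusted p = 0.00036). Kif15 and Kif11 fell by 1.66 (SE 0.21) and 1.64 (SE 0.28). For Kif11 irradiated array 3 stood apart at 8.31, against 7.18 and 7.14. The kinesin list mean was -1.35, -1.27 and -0.84 in irradiated arrays 1 to 3, so array 3 fell least here, while array 1 moved least over all called genes.

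Of 25 spindle and cytokinesis genes 17 fell (median -1.18), or 11 without untreated array 2. Depdc1a read 7.52, 7.50 and 7.29 untreated and 5.02, 5.34 and 5.75 irradiated, and fell by 2.07 (SE 0.20, 4.19-fold, limma adjusted p = 0.00015). Birc5, which encodes survivin, fell by 2.01 (SE 0.24), the contractile ring protein Anln by 1.73 (SE 0.20) and the spindle protein Hmmr by 1.73 (SE 0.21). Of 17 condensin and chromosome structure genes 7 fell (median -0.47). Cdca5, the cohesion factor sororin, fell by 0.91 (SE 0.13), and Top2a, topoisomerase II, by 1.61 (SE 0.30). The count was 3 without untreated array 1 or 2 or irradiated array 2 and 4 without irradiated array 1. Prr11, outside the lists, read 9.14, 8.88 and 8.73 and then 6.44, 5.93 and 7.45, and fell by 2.31 (SE 0.32).

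The windows of Cdk1 and Depdc1a are shown because both hold TTTGAA, the letters of a CHR element, and CCAAT, the letters of a CCAAT box. Matches on either strand are in capitals, where TTCAAA and ATTGG are the letters of the opposite strand.
Cdk1, chr10:69352913-69353135, minus strand, 5 matches from -208 to -10: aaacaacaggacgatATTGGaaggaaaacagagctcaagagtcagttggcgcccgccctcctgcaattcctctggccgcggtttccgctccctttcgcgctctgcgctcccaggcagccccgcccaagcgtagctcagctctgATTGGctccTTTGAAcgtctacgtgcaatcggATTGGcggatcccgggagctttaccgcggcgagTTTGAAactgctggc
Depdc1a, chr3:159495379-159495432, plus strand, 2 matches from -39 to -11: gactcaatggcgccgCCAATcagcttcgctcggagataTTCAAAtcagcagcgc
TTTGAA was present in 42 of 60 windows (70.0%) of mitosis list members that fell, in 22.1% of windows of all falls, in 11.2% of those of all rises and in 12.4% of those of all genes tested. CCAAT was present in 70.0% of the windows of mitosis members that fell and in 46.4% of those of all falls. It was also present in 40.05% of windows of all rises and in 36.9% of those of all genes tested. Among windows of p53 list members that rose, 16 of 32 held CCAAT, a larger share than among all falls. Among those of NF-kB and chemokine members that rose, 3 of 14 did. Matches of the pair overlapped in 17 of 14918 windows. The sets were chosen by measured values, so these shares are a description with no test.

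Genes of DNA replication and of its supply of nucleotides were also among the falls. Of 42 replication genes 15 fell and 0 rose (median -0.54). Pole, the catalytic subunit of polymerase epsilon, read 8.93, 9.04 and 8.78 untreated and 7.98, 8.04 and 8.03 irradiated, and fell by 0.90 (SE 0.12, limma adjusted p = 0.0013). Pole2 fell by 1.03 (SE 0.19), the ligase Lig1 by 0.82 (SE 0.14) and the clamp loader genes Rfc5 and Rfc2 by 0.80 (SE 0.14) and 0.70 (SE 0.12). The count was 5 without untreated array 2 or irradiated array 2, 6 without untreated array 1 and 7 without irradiated array 3. Of 20 nucleotide synthesis genes 7 fell (median -0.41), among them Tyms, thymidylate synthase, by 0.75 (SE 0.13). That count was 4 without untreated array 1 and 3 without untreated array 2 or irradiated array 2.

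No gene of the 3 break repair lists rose past the test. Of 19 Fanconi anaemia genes 5 fell and 0 rose (median -0.37), and 3 fell without untreated array 1, untreated array 2 or irradiated array 2. Fancd2, whose protein marks stalled forks and has been linked to NIPA, read 7.26, 7.47 and 7.15 untreated and 6.15, 6.31 and 6.37 irradiated, and fell by 1.02 (SE 0.13, 2.02-fold, limma adjusted p = 0.00097). Its partner Fanci fell by 0.82 (SE 0.14). Of 17 homologous recombination genes 10 fell (median -0.70), with 1 left without untreated array 2 and 6 without irradiated array 2. Blm, a helicase, fell by 0.71 (SE 0.12) and held its call in every alternative that was run. The resolvase Gen1 fell by 1.64 (SE 0.32), a call lost in the 6 KO arrays alone and without untreated array 2 (adjusted p 0.0525 and 0.0594). In the end joining list 2 of 16 fell, with 0 left without untreated array 2 and 1 without any other single KO array except irradiated array 1. Among 25 damage sensors Atm, the kinase that starts the response, was the single gene past limma's test, while 14 had an unadjusted p under 0.05. Atm alone is 4.0% of the list, close to the 3.2% of all genes that fell. The count of falls was 5 without irradiated array 1, and Atm passed in every alternative. It read 8.83, 9.01 and 8.93 and then 7.79, 8.12 and 7.94, and fell by 0.97 (SE 0.12, adjusted p = 0.00063).

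Regulators of the exit from the cycle were mixed. Of 21 quiescence genes and CDK inhibitors 4 rose and 1 fell (median 0.20), with 2 risers left without untreated array 1 or 2 or irradiated array 2 or 3. The shares were 19.0% and 4.76%, against 2.74% and 3.2% of all genes. Tob1, an antiproliferative protein, read 6.59, 7.01 and 7.22 untreated and 8.75, 8.84 and 8.50 irradiated, a rise of 1.75 (SE 0.15, limma adjusted p = 5e-05). Rbl2, the pocket protein p130 of the DREAM complex, rose by 0.62 (SE 0.12), while Rbl1, the pocket protein p107, fell by 1.00 (SE 0.18). Of 18 E2F and G1 cyclin genes 3 fell (median -0.40). The count was 0 without untreated array 2, 1 without untreated array 1 or irradiated array 2 and 7 without irradiated array 1. In the list of APC/C and SCF ubiquitin ligases, the enzymes among which NIPA is counted, 1 of 25 rose and 4 fell. The riser was Cdc34, a ubiquitin-conjugating enzyme, by 0.96 (SE 0.12), and 0 fell without untreated array 1, untreated array 2 or irradiated array 2.

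Erythroid genes were among the falls. Car1, which encodes carbonic anhydrase 1 of the erythroid lineage, had the largest fall of all genes tested. It read 8.92, 9.40 and 8.96 untreated and 5.26, 6.08 and 6.45 irradiated, and fell by 3.16 (SE 0.27, 8.96-fold, limma adjusted p = 4.6e-05). Ermap and Rhag, red cell membrane proteins, fell by 1.46 (SE 0.24) and 1.00 (SE 0.17). In all, 5 of 18 erythroid genes fell and 0 rose (median -0.49), and 3 fell without untreated array 1 or 2. Car2, of the same family as Car1, differed by 0.38 (SE 0.21, adjusted p = 0.35). Flt3, a receptor of lymphoid-primed progenitors, read 8.95, 8.66 and 8.79 and then 7.87, 7.72 and 7.92, and fell by 0.96 (SE 0.16). Il1r1, the receptor of interleukin 1, fell by 1.11 (SE 0.21). Of 28 cytokine receptors 4 fell (14.3%, against 3.2% of all genes) and 1 rose (3.57%, against 2.74%). The count of falls was 2 without untreated array 1, untreated array 2 or irradiated array 2.

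Of 24 genes of haematopoietic stem cells, Meis1 was the single gene past limma's test, while 7 had an unadjusted p under 0.05. Meis1 alone is 4.17% of the list, close to the 3.2% of all genes that fell. The count of falls was 3 without irradiated array 1, 2 without irradiated array 2 or any of 3 WT arrays (untreated 1, irradiated 1 and irradiated 3), and 0 without untreated array 3 or irradiated array 3. Meis1 fell by 0.74 (SE 0.15) and lost its call without untreated array 2 or 3 or irradiated array 3 (limma adjusted p 0.0519 to 0.0641). Cd34 differed by -0.07 (SE 0.19) and Kit by -0.43 (SE 0.30, adjusted p = 0.49). No member of the B cell (15 tested), T and NK cell (11), monocyte (16), granulocyte (18), mast cell (11), megakaryocyte (12) or endothelial (14) lists passed limma's test. At an unadjusted p under 0.05, 2, 2, 2, 0, 2, 1 and 1 of them differed, in the same order. Under other settings or with 1 array left out, at most 3 members of any of these lists passed. Whether a change in the mix of cells bears on the falls of Car1 and Flt3 was not tested.

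**Figure D4:**
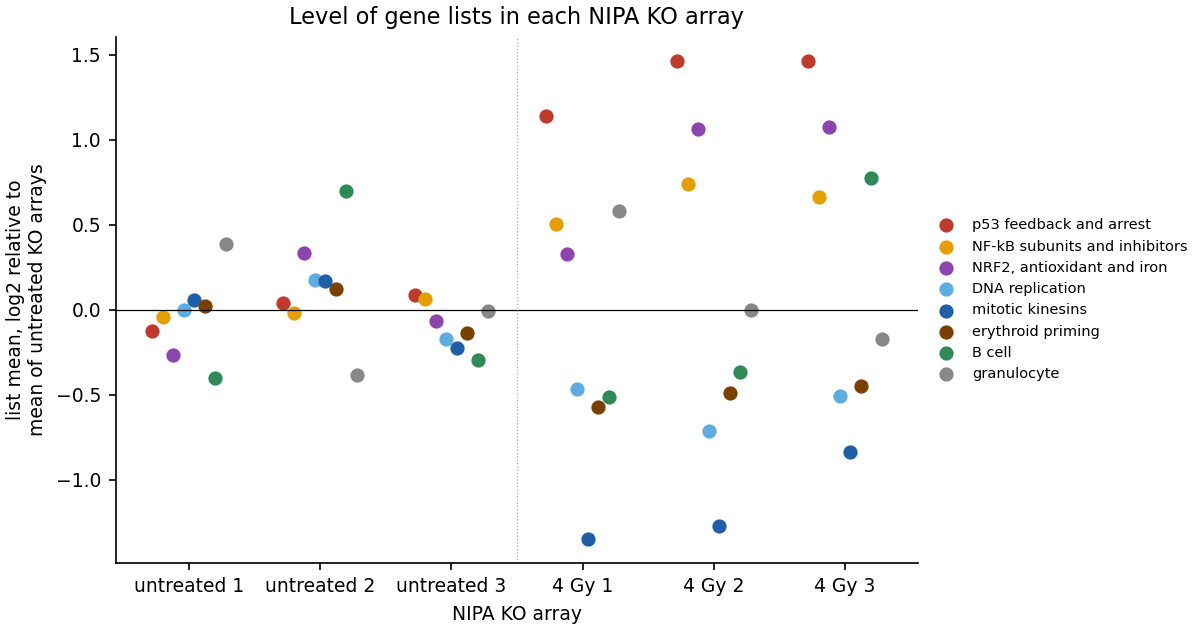
Mean of the members of 8 gene lists in each of the 6 NIPA KO arrays, on the log2 scale relative to the mean of the untreated KO arrays. The p53 and NF-kB lists are higher and the replication, kinesin and erythroid lists lower in all 3 irradiated arrays, while the B cell list is high in untreated array 2 and irradiated array 3.

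Of 31 ribosome biogenesis genes 6 fell and 0 rose (median -0.44). Rrp1b, a nucleolar protein, read 8.76, 8.35 and 8.36 untreated and 7.87, 7.59 and 7.35 irradiated, and fell by 0.88 (SE 0.15, limma adjusted p = 0.0046). The count was 12 without irradiated array 1 and 1 without untreated array 1 or 2 or irradiated array 2 or 3. Of 65 small nucleolar RNA genes 2 fell, Snora75 and Snord99. That is 3.08%, close to the 3.2% of all genes, and the median of the class was -0.28. Snora75 fell by 1.32 (SE 0.20), from 7.13, 6.96 and 7.20 to 6.22, 5.27 and 5.84. By RefSeq class, 6.25% of 13867 protein-coding genes, 2.93% of 886 long non-coding RNA genes and 3.47% of 202 microRNA genes were called. Lockd, a long non-coding RNA downstream of Cdkn1b, fell by 1.59 (SE 0.19).

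KO and WT cells mostly moved in the same direction. Of the 420 genes that rose in KO cells 419 had a difference of the same sign in WT cells, and of the 491 that fell 488 did. The median difference of these genes was 0.77 and -0.67 in WT cells, against 0.90 and -0.74 in KO cells. The genes were selected on their KO values, so a smaller median in WT cells is no test of a difference. Across the 15348 genes, which are not independent replicates, the differences of the genotypes had r = 0.864, and 74.5% had the same sign. The arrays of the genotypes are separate.

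No gene's response differed between the genotypes by limma at an adjusted p under 0.05 (smallest adjusted p 0.9999). An unadjusted p under 0.05 was found for 235 of 15348 genes, 30 of them among the KO calls. That is a smaller share than the 0.05 given by a threshold of 0.05 when no response differs and the error is estimated well. Whether variation shared by arrays of a pool widened the error was not tested. The absence of calls therefore does not show that the responses were equal. The median half-width of the 95% confidence interval of the difference between the responses was 0.45 on the log2 scale. Smaller differences were not resolved for the median gene. The differences were -2.34 in KO and -2.57 in WT cells for Plk1, -1.95 and -2.14 for Cdk1 and -1.02 and -0.94 for Fancd2. Mdm4 rose by 1.44 in KO and 1.83 in WT cells (difference -0.39, unadjusted p = 0.046), and Nfkbia by 1.07 and 0.72 (difference 0.36, unadjusted p = 0.034). Car1 differed by -3.16 in KO and -2.24 in WT cells (difference between them -0.92, unadjusted p = 0.032). A1cf, an RNA-binding cofactor of editing, read 6.27, 6.42 and 6.81 untreated and 8.35, 8.53 and 8.67 irradiated in KO cells, a rise of 2.02 (SE 0.15), against 1.14 in WT cells (difference 0.88, unadjusted p = 0.0015). Snora75 fell by 1.32 in KO cells and differed by -0.40 in WT cells (difference -0.92, unadjusted p = 0.0061). None of these differences between the genotypes passed after adjustment over all genes. A1cf was among the 5 genes picked for the smallest p of this difference over all genes tested, so its unadjusted p is no independent support.

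**Figure D5:**
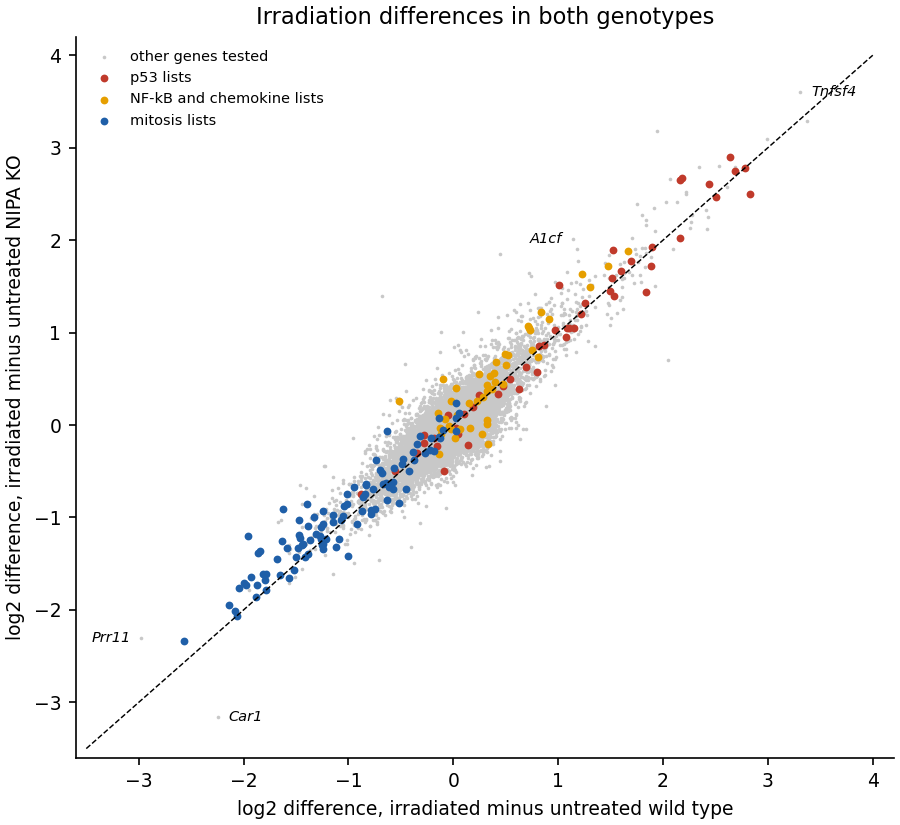
Log2 difference after irradiation in wild type (horizontal) and NIPA KO cells (vertical) for 15348 genes, with the members of 3 groups of lists in colour and equality as a dashed line. The differences of the genotypes correlate (r = 0.864 across genes), and 74.5% of genes have the same sign in both. A1cf, picked for its small p of the difference between genotypes, lies above the dashed line and Car1 below.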

How the data were processed

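The authors' deposited values are log2 expression values, 1 per probe set and array; the submitters' processing notes name oligo and RMA, and the sources used here give neither their versions nor the genome build. Of 41345 probe sets, 23521 have 1 symbol, 1814 several and 16010 none in the platform annotation; symbols were updated through RefSeq gene IDs (23328 matched). Genes above the 40th percentile of the table (5.29) in at least 3 arrays were tested, which removed 6832. limma 3.58.1 in R 4.3.3 (lmFit, eBayes) was fitted to all 12 arrays with 4 groups, and two-sided p-values were adjusted by Benjamini-Hochberg over 15348 genes. The script was tested on simulated data. The median SE of a KO difference was 0.147, with a 95% half-width of 0.319 on 8 residual degrees of freedom. An exact permutation test of 3 against 3 arrays cannot go below 0.1.

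The 52 gene lists come from textbook knowledge and hold 1080 distinct members, of which 954 were tested, 42 were too dim, 40 shared probe sets with other symbols and 44 had no named probe set. The members and lists were chosen with earlier results of these data known. Named genes are Zc3hc1, Fancd2 and 13 genes picked by hand where measured, among them Cdkn1a, Plk1, Nfkbia, Car1 and Myc. Others are the 30 largest non-overlapping rises and falls, up to 6 passing members of each list by smallest p and the sort markers. The rest are the 5 smallest p-values of the difference between genotypes and the 5 called genes with the smallest spread. The 2 brightest members of each cell type list were added. Predicted genes were counted and not named. Snord99 was named after its values were seen. RefSeq start site windows were matched by symbol.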

Additional observations from a re-analysis of the deposited data

Results flagged for a closer look

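Among the 226 named genes, 3 had irradiated and untreated arrays that did not overlap in either genotype and differed in opposite directions. They were picked for this pattern, and genes that are not named were not searched for it. The named genes include those with the smallest p of the difference between the genotypes. The unadjusted p-values of that difference below are therefore no independent support. In WT cells none of the 3 passed limma's test (adjusted p 0.561 for Slc35d2, 0.3904 for Gsc2 and 0.09612 for Igf2), and in KO cells Slc35d2 and Gsc2 did. Slc35d2, a nucleotide sugar transporter, read 5.68, 5.59 and 5.60 in untreated and 6.14, 6.17 and 6.19 in irradiated KO cells, a difference of 0.55 (SE 0.09, limma adjusted p = 0.004), against -0.11 in WT cells. The difference between the responses was 0.65 (unadjusted p = 0.00024). Gsc2, a homeobox gene, differed by -0.47 in KO cells, from 5.73, 5.61 and 5.56 to 5.36, 5.16 and 4.98, and by 0.19 in WT cells (difference -0.65, unadjusted p = 0.0014). Igf2, a growth factor, differed by -0.28 in KO (limma adjusted p = 0.108) and 0.30 in WT cells (difference -0.58, unadjusted p = 0.00089). After adjustment over all genes, limma's p was 0.9999 for each of these differences. All 3 genes lie close to the brightness limit of 5.29.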

How the results depend on the processing

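The 911 calls in KO cells became 557 with the 6 KO arrays alone (293 higher, 264 lower) and 1647 with array weights (725 and 922), in which irradiated array 1 had the lowest weight, 0.437. With the replicate number as a block the count was 1390 (640 higher, 750 lower), and 868 of the 911 were among them. The labels do not say what the numbers mean. Deviations of same-numbered KO arrays correlated at 0.474, -0.239 and -0.122, and untreated arrays 2 and 3 correlated best with irradiated arrays 3 and 2. Same-numbered WT arrays correlated at 0.491, 0.476 and 0.42, each best with its own number. The block was therefore not used for the 911 calls. Leaving out 1 array gave 392 to 1573 calls, 228 to 670 higher and 164 to 903 lower. Other brightness limits, scalings, a trended prior or the mean of probe sets gave 817 to 934 calls. The share of calls that were higher was 46.1%, and 53.6% after cyclic loess. Averaging probe sets turned the sign of 1 called gene that is not named here. The count of genes whose responses differ between genotypes was 0 in every alternative that has WT arrays. Of 197 named genes that were called, 127 kept the call in every alternative that tested them and none turned its sign. The number of arrays limits the precision.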

Other observations

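Further lists were mixed in irradiated KO cells. Of 20 genes of glycolysis and hypoxia, 2 rose and 2 fell (median 0.04). Adm, the vasodilator peptide adrenomedullin, read 5.36, 4.65 and 5.44 untreated and 6.55, 7.12 and 6.66 irradiated, a rise of 1.62 (SE 0.24, limma adjusted p = 0.0022), and its call alone of the 4 held in every alternative and with any array left out. Of 24 mediators of mTOR and AMPK signalling, 2 rose (8.33%, against 2.74% of all genes) and 1 fell (4.17%, against 3.2%), with a median of -0.01. There was 1 riser left without untreated array 2 or irradiated array 2. Subunits of AMPK, the kinase that senses low energy, moved in opposite directions. Prkab2 went from 7.76, 7.72 and 7.81 to 8.56, 8.58 and 8.96, a rise of 0.93 (SE 0.14), while Prkag2 went from 7.65, 7.55 and 8.05 to 7.07, 6.84 and 6.63 and fell by 0.90 (SE 0.15). Both held their call in every alternative.

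Of 29 interferon response genes 2 rose and 2 fell (median -0.02). That is 6.9% each way, against 2.74% of all genes that rose and 3.2% that fell. Mx2 rose by 0.73 (SE 0.12, limma adjusted p = 0.0037), from 5.56, 5.42 and 5.19 to 6.09, 6.09 and 6.17. It was the single call of the list that held in every alternative that tested the gene. Of 13 dendritic cell genes, Itgax, the gene of CD11c, rose by 0.99 (SE 0.25), a call lost in 10 alternatives, and Flt3 fell. In the lymphoid-primed list 2 of 8 fell (median -0.55), Flt3 and Ikzf1, the latter by 0.65 (SE 0.14), a call lost in 6 alternatives (limma adjusted p 0.0555 to 0.0848).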
